A study of Homo sapiens with 16 samples.

Results

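The 10 genes described here encode the alpha and beta tubulins that 2 anaplastic thyroid carcinoma cell lines use, and were taken by symbol from a table of 60715 genes. The choice was made with earlier results of these data known. They are the alpha tubulin genes TUBA1A, TUBA1B, TUBA1C and TUBA4A and the beta tubulin genes TUBB, TUBB2A, TUBB2B, TUBB3, TUBB4B and TUBB6. RNA was sequenced from 8505c cells, which carry a BRAF mutation, and from CAL62 cells, which carry a K-RAS mutation, after 24 h in medium with serum and 1 of 4 treatments. The treatments were the vehicle DMSO, 1 or 10 µM DEL-22379, described as an inhibitor of ERK dimerization, and 10 µM U0126, which blocks the kinase MEK upstream of ERK. The sample titles write the DEL-22379 doses as mM and give no dose for U0126. The paper's methods give all of these doses in µM and are followed. Every combination of line and treatment, 8 in all, had 2 replicate libraries, which gave 16, so that each oncogene is represented by 1 cell line.

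Microtubules are polymers of alpha and beta tubulin heterodimers, and every human cell draws both chains from several genes whose products differ mainly in their tails. Tubulin mRNA is known to be controlled by its own product. When unpolymerized tubulin accumulates, as after microtubule loss, TTC5 recognizes the first residues of the nascent tubulin chain at the ribosome and, through SCAPER, brings in the CCR4-NOT deadenylase, and the mRNA is degraded. TUBA1B, TUBA1C, TUBB and TUBB4B are the broadly used genes, whereas TUBB3 and TUBA1A are best known from neurons, TUBB2A and TUBB2B are prominent in brain, TUBB6 is a divergent beta isotype of many non-neuronal cells, and TUBA4A encodes an alpha chain without the usual terminal tyrosine.

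The start of each coding sequence is shown because it holds the signal that autoregulation reads. The capitals mark the codons of the first 4 residues, Met-Arg-Glu-Cys in the alpha and Met-Arg-Glu-Ile in the beta tubulins, and the sequences were read from the GENCODE 29 transcripts.
TUBA1A: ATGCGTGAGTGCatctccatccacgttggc
TUBA1B: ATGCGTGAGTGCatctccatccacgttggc
TUBA1C: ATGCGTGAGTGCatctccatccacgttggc
TUBA4A: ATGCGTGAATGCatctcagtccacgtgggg
TUBB: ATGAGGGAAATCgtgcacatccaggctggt
TUBB2A: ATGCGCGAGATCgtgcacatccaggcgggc
TUBB2B: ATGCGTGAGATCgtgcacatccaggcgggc
TUBB3: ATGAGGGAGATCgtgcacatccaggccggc
TUBB4B: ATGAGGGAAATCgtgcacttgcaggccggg
TUBB6: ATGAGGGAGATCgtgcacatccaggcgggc
All 10 members began with 1 of the 2 tetrapeptides. In the whole annotation 20 genes did so, and 19 of them had a symbol beginning with TUB.

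The genes lie on 6 chromosomes of GRCh38. TUBA1B (chromosome 12, 49127782 to 49131397, minus strand), TUBA1A (chromosome 12, 49184796 to 49189324, minus strand) and TUBA1C (chromosome 12, 49188736 to 49274603, plus strand) are neighbours, and the annotated ends of TUBA1A and TUBA1C overlap on opposite strands. TUBB2A (chromosome 6, 3153669 to 3157526) and TUBB2B (chromosome 6, 3224261 to 3231730), both on the minus strand, are 66735 bases apart, and TUBB (chromosome 6, 30720201 to 30725426, plus strand) is on the same chromosome. TUBA4A is on chromosome 2 (219249711 to 219278170, minus strand), TUBB4B on chromosome 9 (137241213 to 137243707, plus strand), TUBB3 on chromosome 16 (89921392 to 89938761, plus strand) and TUBB6 on chromosome 18 (12307669 to 12344320, plus strand).

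Near-identical copies limit how far single genes can be told apart. The coding sequences of TUBB2A and TUBB2B were 98.1% identical, and those of TUBA1A and TUBA1B 97.2%. Of all stretches of 51 bases, the length of 1 read, in the TUBB2A transcript, 65.2% also occurred in a transcript of another gene, against 52.1% for TUBB2B, 62.2% for TUBA1B, 40.5% for TUBA1A and 24.8% for TUBA1C. For TUBA4A, TUBB, TUBB4B and TUBB6 this share was 5.11%, 17.6%, 9.64% and 0.894%. TUBB3 shared 89.4% of its stretches, all of them also present in AC092143.1, a longer gene on the same strand whose annotation overlaps TUBB3, and which was listed at 0 in 12 libraries and reached at most 0.406% of TUBB3. How the counting assigned shared reads is not given in the sources used here. Values of TUBB2A against TUBB2B and within the TUBA1 genes are therefore uncertain, and their sums are given below. Levels compared between other members can also depend on that assignment, because their shared parts differ in size.

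Libraries held 25683055 to 43855892 recovered reads. The members took 0.147% to 0.856% of a library. The 2 CAL62 replicates lay further apart than those of 8505c. The higher replicate of a pair exceeded the lower by a median of 1.53-fold over the 40 pairs of member and group in CAL62, and by 1.10-fold in 8505c. CAL62 libraries of the same replicate number also tended to deviate from their group means together across genes. The correlation was 0.50 for DMSO with 1 µM DEL-22379 and 0.22 to 0.26 for the other pairs of CAL62 treatments, against 0.088 to 0.122 in 8505c. Values with the replicate number as a block are given where they change a call. Neuronal marker RNA was low, with ELAVL4 at 0 throughout, RBFOX3 at 6.84 normalized counts or less and the 8 markers together between 26.2 and 82.6 normalized counts. Of the thyroid markers, TSHR was at 0 in every library, TG did not exceed 2.60 normalized counts in 8505c, PAX8 was high in CAL62 (7285 to 12449 normalized counts) and NKX2-1 in 8505c (3765 to 6234 normalized counts).

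Under DMSO both lines drew mainly on the same few genes. In normalized counts per kb of transcript, the order was TUBA1B, TUBB, TUBB4B, TUBA1C, TUBB6 and TUBB3 in both lines, from 53323 ± 5986 to 1730 ± 157 in 8505c and from 26648 ± 11356 to 831 ± 305 in CAL62 (SD, n = 2). The last 4 places belonged to TUBB2A, TUBA1A, TUBA4A and TUBB2B, with TUBB2B lowest in both lines at 38.3 ± 7.28 and 15.7 ± 10.6 per kb. In CAL62 the replicates of TUBB (11376 and 16883 per kb) and TUBB4B (8392 and 14976 per kb) overlapped, so that these neighbours did not separate beyond their spread. The replicates of all other neighbours in either order did not overlap.

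**Figure D1:**
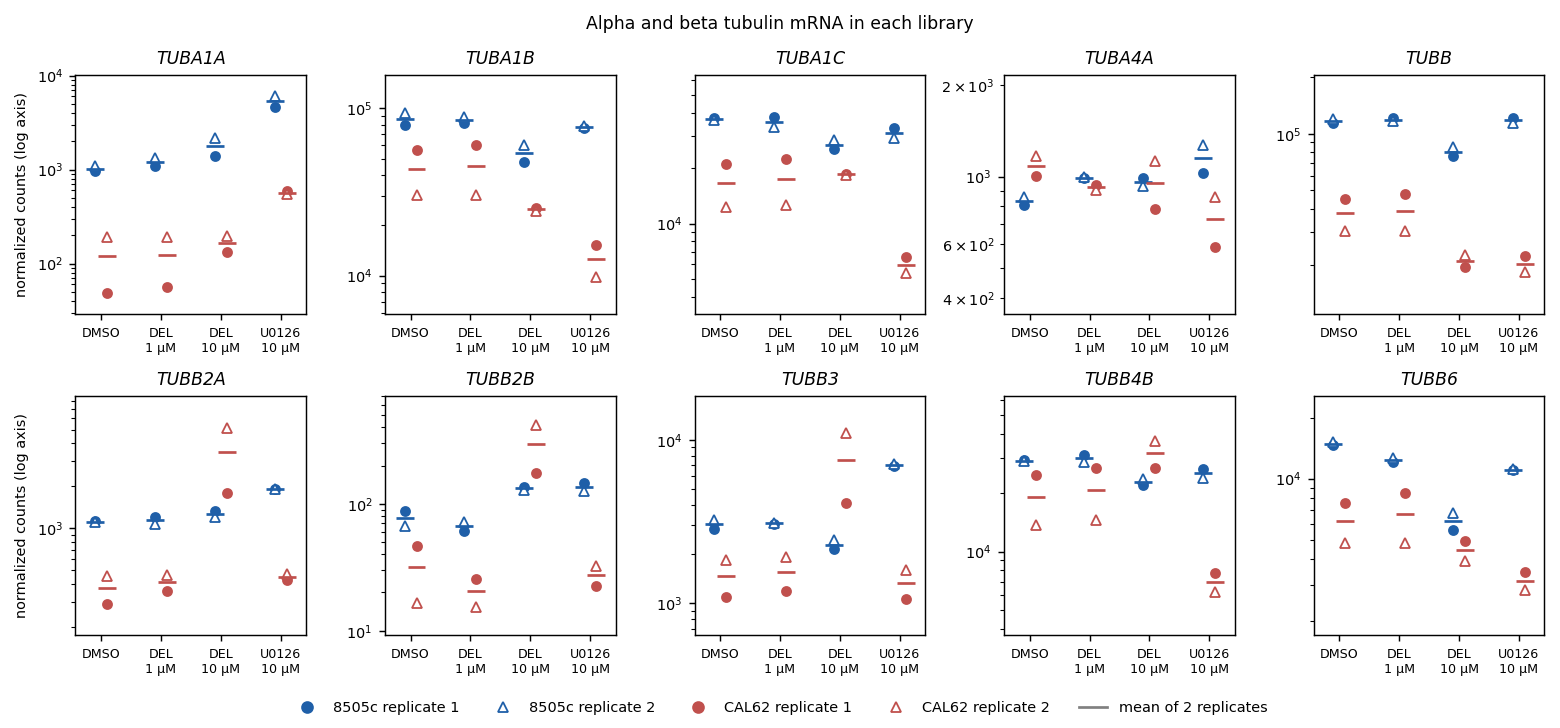
Normalized counts (log axis) of each tubulin gene in every library by treatment, with 8505c in blue, CAL62 in red, replicate 1 as filled circles, replicate 2 as open triangles and bars for the mean of the 2 replicates. TUBB2A, TUBB2B and TUBB3 of CAL62 are high with 10 µM DEL-22379, and TUBA1A is high with U0126 in both lines.

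CAL62 cells held less tubulin mRNA than 8505c cells under DMSO. Of the 10 members 8 were lower in CAL62 and none was higher at an adjusted p under 0.05, against 27.4% of all 19127 genes tested that were lower and 25.6% that were higher. The median log2 difference of the members was -1.25, that of all genes 0. TUBB, the main beta gene, had 113967 and 119915 normalized counts in 8505c and 45077 and 30375 in CAL62, a log2 difference of -1.66 ± 0.21 (SE, adjusted p = 3.1e-05). TUBA1A was the furthest apart. It had 955 and 1085 normalized counts in 8505c and 48.2 and 193 in CAL62 (log2 difference -3.38 ± 0.59, adjusted p = 4.6e-04), and the CAL62 replicates differed 4-fold. The sum of the 3 TUBA1 genes was lower in CAL62 (-1.11, adjusted p = 0.0072), as was that of TUBB2A and TUBB2B (-1.57, adjusted p = 0.0018). TUBA4A did not pass (0.38 ± 0.19, adjusted p = 0.116), nor did TUBB4B (-0.67 ± 0.29, adjusted p = 0.0658). With the block both passed, TUBA4A as higher in CAL62 (adjusted p = 0.038) and TUBB4B as lower (adjusted p = 0.0446). TUBA1B lost its call without CAL62 DMSO replicate 2 (-0.62, adjusted p = 0.152) or 8505c DMSO replicate 2 (-0.95, adjusted p = 0.0852). TUBB2B lost it without that CAL62 library (-0.70, adjusted p = 0.259), and TUBB3 without CAL62 DMSO replicate 1 (-0.72, adjusted p = 0.223). Both also lost it without either 8505c DMSO library (adjusted p 0.0534 to 0.127).

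With 1 µM DEL-22379 no tubulin gene passed the test. In limma 0 of 10 members were called in either line, 0 had an unadjusted p under 0.05, and edgeR and DESeq2 also called 0. Among all genes 0.00523% rose and 0.0105% fell in 8505c, and 0 of them were called in CAL62, where 336 had an unadjusted p under 0.05. Both libraries lay above both DMSO libraries for 2 members and below for 1 in 8505c, against 17.1% and 16.9% of all genes, and for 0 and 1 in CAL62, against 7.54% and 8.52%. The log2 fold changes of the members ran from -0.27 (TUBB6) to 0.25 (TUBA4A) in 8505c and from -0.48 (TUBB2B) to 0.17 (TUBB2A) in CAL62.

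At 10 µM DEL-22379, 3 beta tubulin genes rose in CAL62 cells. TUBB2A rose 8.29-fold, TUBB2B 9.31-fold and TUBB3 4.71-fold on the scale of normalized count plus 1, while TUBB, the main beta gene, fell. These were 3 rises and 1 fall among 10 members, against 17.1% of all genes tested that rose and 16.8% that fell. The median log2 fold change of the members was 0.47 and that of all genes 0.

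TUBB2A, a beta isotype prominent in brain, had 289 and 457 normalized counts with DMSO, 357 and 467 with 1 µM and 1782 and 5121 with 10 µM DEL-22379, and 425 and 470 with U0126. Both libraries of the high dose lay above every other CAL62 library, and replicate 2 was 2.87-fold above replicate 1. The log2 fold change over DMSO was 3.05 ± 0.36 (adjusted p = 8.4e-05). Between same-numbered libraries TUBB2A was 6.16-fold and 11.2-fold above DMSO.

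TUBB2B, its neighbour and close copy, had 46.8 and 16.6 normalized counts with DMSO, 25.5 and 15.3 with 1 µM, 174 and 418 with 10 µM DEL-22379, and 22.7 and 32.2 with U0126. The log2 fold change with 10 µM DEL-22379 was 3.22 ± 0.48 (adjusted p = 3.8e-04). Same-numbered libraries differed 3.71-fold and 25.1-fold, with the DMSO replicates 2.82-fold and the high-dose replicates 2.41-fold apart, in opposite order. The sum of TUBB2A and TUBB2B, which does not depend on how reads were divided between this pair, rose by 3.04 ± 0.34 (log2, adjusted p = 5.7e-05).

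TUBB3, the class III beta tubulin of neurons, had 1089 and 1852 normalized counts with DMSO, 1183 and 1930 with 1 µM, 4091 and 10944 with 10 µM DEL-22379, and 1064 and 1595 with U0126. The high dose again stood above the other 6 CAL62 libraries, with replicate 2 above replicate 1. Its log2 fold change was 2.24 ± 0.39 (adjusted p = 0.00121). The calls of these 3 genes held when any 1 library was left out. With only the 4 libraries compared, TUBB2B (adjusted p = 0.0588) and TUBB3 (adjusted p = 0.0698) lost theirs. Over the fits with 1 library left out, TUBB2A ranged from 2.29 to 3.81, TUBB2B from 2.50 to 3.94 and TUBB3 from 1.53 to 2.95 (log2). The 8 neuronal markers summed to 48.5 and 82.6 normalized counts in these high-dose libraries and 38.8 and 65.5 with DMSO, and of the 2 that could be tested 0 were called by limma, edgeR or DESeq2 and 0 had an unadjusted p under 0.05.

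TUBB fell from 45077 and 30375 normalized counts with DMSO to 19559 and 22693 with 10 µM DEL-22379 (log2 fold change -0.81 ± 0.21, adjusted p = 0.0114). The groups did not overlap. The call was lost without CAL62 DMSO replicate 1 (-0.53, adjusted p = 0.12) and without high-dose replicate 1 (-0.70, adjusted p = 0.0595). TUBB also lost it when only the 8 CAL62 libraries were fitted (adjusted p = 0.0719) or only the 4 compared (adjusted p = 0.111). TUBA1B, the main alpha gene, had 56422 and 30292 normalized counts with DMSO and 25403 and 24418 with 10 µM DEL-22379 (-0.73 ± 0.32, adjusted p = 0.0996). TUBB4B, a broadly used beta gene, had 24516 and 13738 normalized counts with DMSO and 26648 and 36954 with the high dose (0.77 ± 0.29, adjusted p = 0.0544). With the block TUBA1B fell (adjusted p = 0.00663), TUBB6 fell (-0.46, adjusted p = 0.0118) and TUBB4B rose (adjusted p = 0.0335), which made 4 rises and 3 falls among the members against 22.0% and 22.0% of all genes. TUBA1A, TUBA1C and TUBA4A passed in neither fit (log2 fold changes 0.73, 0.21 and -0.21). The sum of the 3 TUBA1 genes did not pass in the fit without the block (-0.40, adjusted p = 0.329). Without CAL62 DMSO replicate 1 the value of TUBA1A changed sign, to -0.26 (adjusted p = 0.784). High-dose libraries lay above both DMSO libraries for 4 members and below for 2, against 31.3% and 29.8% of all genes.

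The high dose also differed from the low dose in CAL62, with 3 members higher and 1 lower against 16.3% and 15.8% of all genes. TUBB2B was higher by 3.70 ± 0.48 (log2, adjusted p = 2.0e-04), TUBB2A by 2.89 ± 0.36 (adjusted p = 1.4e-04) and TUBB3 by 2.15 ± 0.39 (adjusted p = 0.00175). TUBB was lower (-0.85 ± 0.21, adjusted p = 0.00938), a call lost without low-dose replicate 1 (-0.53, adjusted p = 0.108) and in the fit of CAL62 alone (adjusted p = 0.0664). With the block TUBA1B (-0.77, adjusted p = 0.00507) and TUBB6 (-0.54, adjusted p = 0.00521) were also lower with the high dose.

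**Figure D2:**
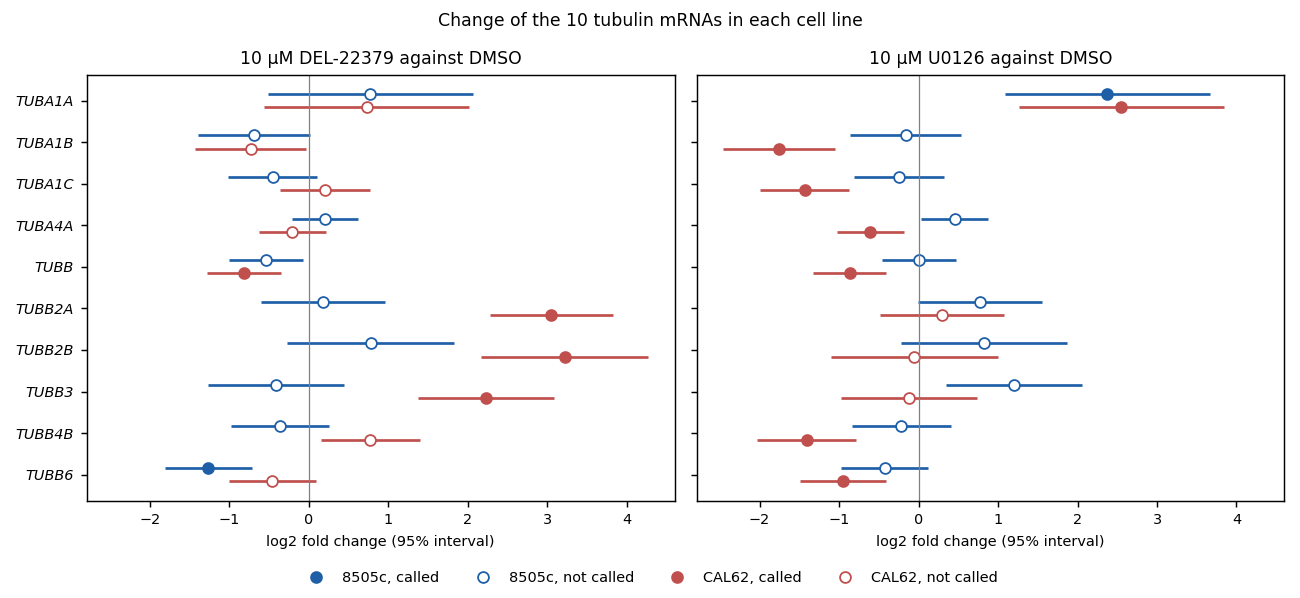
Log2 fold change against DMSO of each tubulin gene with 10 µM DEL-22379 and with 10 µM U0126, as points with 95% intervals, in 8505c (blue) and CAL62 (red), filled where the adjusted p was under 0.05. With DEL-22379, TUBB2A, TUBB2B and TUBB3 of CAL62 lie between 2.24 and 3.22, and with U0126 TUBA1A lies at 2.37 in 8505c and 2.55 in CAL62.

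The makeup of beta tubulin mRNA in CAL62 shifted with these changes. Per kb, TUBB was 46.4% and 48.5% of the summed beta mRNA with DMSO and 24.8% and 20.0% with 10 µM DEL-22379. TUBB4B went from 41.2% and 35.8% to 55.2% and 53.0%, and became the largest beta share. TUBB3 went from 1.69% and 4.46% to 7.84% and 14.5%, and TUBB2A from 0.498% and 1.22% to 3.79% and 7.54%. Among the alpha genes, TUBA1C made up 16.6% and 17.5% with DMSO and 27.7% and 28.2% with the high dose. In 8505c the same dose left TUBB at 61.2% ± 0.376 against 61.4% ± 0.823 with DMSO (SD, n = 2). These shares are descriptions without a test. They depend on the annotated transcript lengths and on how shared reads were assigned, which is not known.

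**Figure D3:**
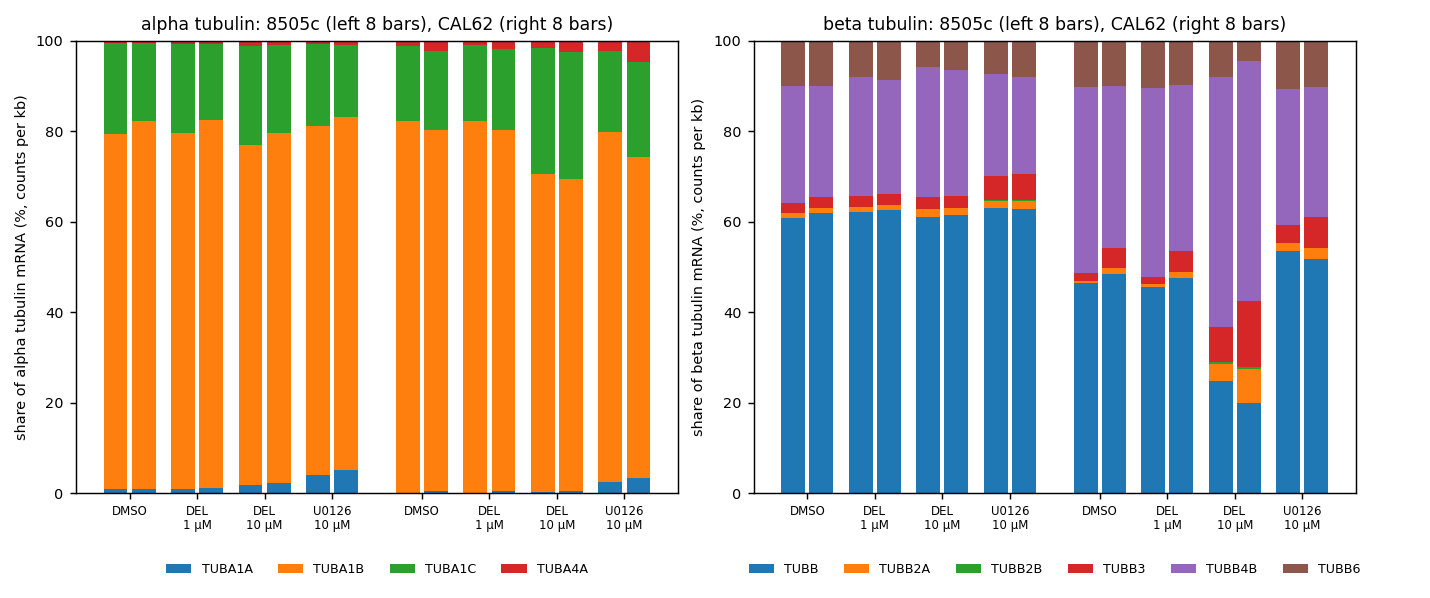
Share of each gene in the summed alpha (left) and beta (right) tubulin mRNA, in percent of normalized counts per kb, with 1 bar per library and replicate 1 left of replicate 2. In CAL62 with 10 µM DEL-22379 the TUBB share is 24.8% and 20.0%, against 46.4% and 48.5% with DMSO.

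The sums of the alpha and beta genes also moved apart in CAL62. With DMSO the alpha sum was 1.16 and 0.995 times the beta sum per kb. With 10 µM DEL-22379 it was 0.752 and 0.512 times, and with U0126 0.775 and 0.642 times. In 8505c the mean ratio was 0.932, 0.918, 0.883 and 0.873 with DMSO, 1 µM and 10 µM DEL-22379 and U0126. These ratios were not tested, and they depend on transcript lengths and read assignment as the shares do.

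**Figure D4:**
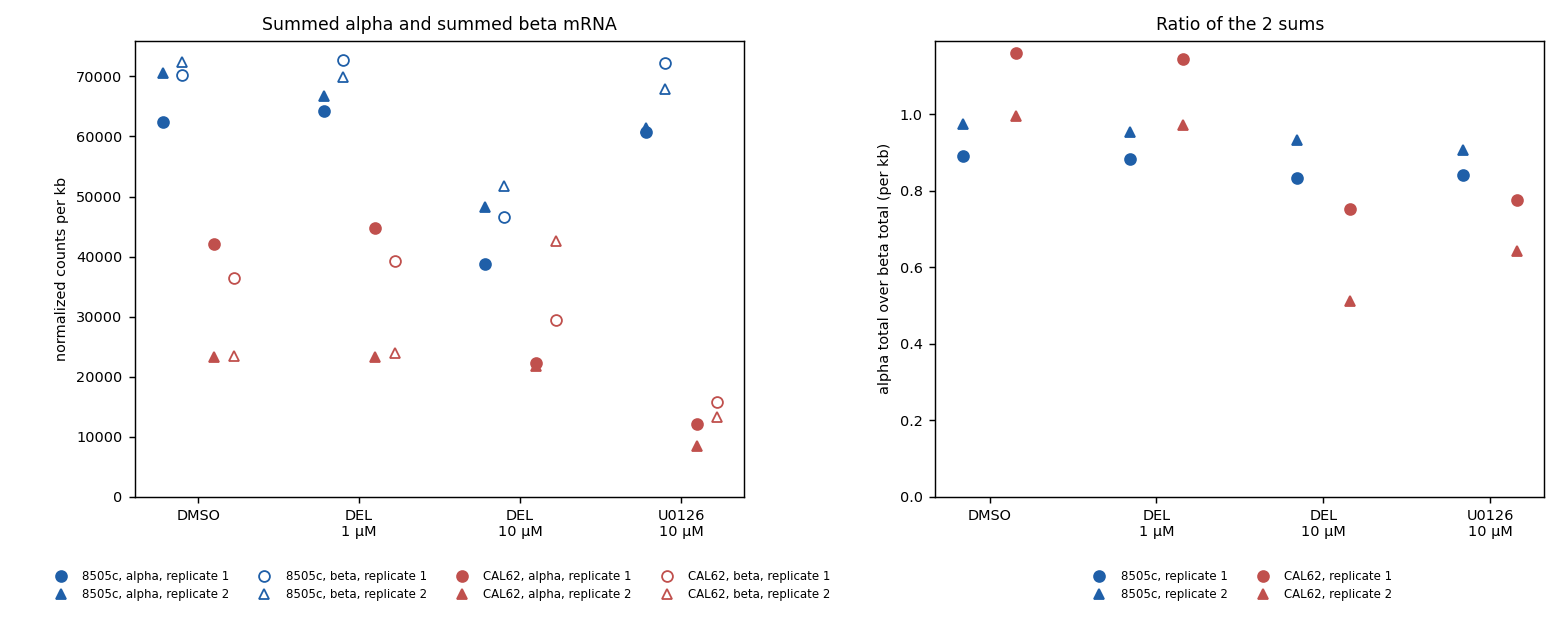
Summed alpha (filled) and beta (open) tubulin mRNA in normalized counts per kb (left) and their ratio (right) in each library, with 8505c in blue, CAL62 in red, replicate 1 as circles and replicate 2 as triangles. In CAL62 the ratio is 1.16 and 0.995 with DMSO and 0.752 and 0.512 with 10 µM DEL-22379.

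In 8505c cells 10 µM DEL-22379 lowered TUBB6 and called no other member when all libraries were fitted together. TUBB6 had 14654 and 15091 normalized counts with DMSO, 12104 and 12600 with 1 µM and 5617 and 6812 with 10 µM DEL-22379. With the high dose TUBB6 changed by -1.27 ± 0.25 (log2, adjusted p = 0.00742). The 3 groups did not overlap. The high dose was also below the low dose (-0.997 ± 0.25, adjusted p = 0.0331), 0 members higher and 1 lower against 4.10% and 3.69% of all genes. Compared with DMSO, the high dose gave 0 rises and 1 fall among 10 members, against 7.07% and 6.57% of all genes. The median log2 fold change of the members over DMSO was -0.39 and that of all genes 0.01. The call was lost without 8505c DMSO replicate 2 (-1.24, adjusted p = 0.0524) and without high-dose replicate 1 (-1.13, adjusted p = 0.0859). In the comparison of the high with the low dose, the call was lost without either low-dose, either high-dose or either U0126 library of 8505c. Over all libraries left out 1 at a time, that value ranged from -1.14 to -0.86. With the block TUBA1B (-0.67, adjusted p = 0.0243) and TUBB (-0.57, adjusted p = 0.0365) were also below the low dose. That made 0 members higher and 3 lower, against 10.2% and 10.5% of all genes.

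The fit of all libraries together uses 1 spread per gene for both lines, and the CAL62 replicates lay further apart. All 10 members had 8505c high-dose libraries on 1 side of both DMSO libraries, 4 above and 6 below, where 31.5% and 29.6% of all genes were. When only the 8 libraries of 8505c were fitted, 8 members were called, 2 rises and 6 falls, against 12.9% and 13.5% of all genes. In that fit TUBA1A (0.77, adjusted p = 0.0225) and TUBB2B (0.78, adjusted p = 0.0296) rose. TUBB6 (adjusted p = 1.3e-04), TUBB (-0.54, adjusted p = 0.00479), TUBA1B (-0.69, adjusted p = 0.00578), TUBB3 (-0.42, adjusted p = 0.0129), TUBA1C (-0.46, adjusted p = 0.0138) and TUBB4B (-0.36, adjusted p = 0.0241) fell. SNAP25, a neuronal marker that did not exceed 17.05 normalized counts in 8505c, rose with the high dose there (2.78, adjusted p = 0.0278). SYP, the other neuronal marker that could be tested, did not pass (0.47, adjusted p = 0.485). Their part in the tubulin changes was not tested. With the block in all libraries, TUBA1B (adjusted p = 0.0171) and TUBB (adjusted p = 0.0367) fell beside TUBB6. In the fit of all libraries without the block, the sum of the 3 TUBA1 genes did not pass (-0.60, adjusted p = 0.202). Nor did that of TUBB2A and TUBB2B (0.23, adjusted p = 0.703). TUBB had 113967 and 119915 normalized counts with DMSO and 75796 and 84933 with the high dose, and TUBA1B 79870 and 93643 against 47478 and 60598.

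The response of 3 members to 10 µM DEL-22379 differed between the lines. The interaction was 2.87 ± 0.51 for TUBB2A (log2, adjusted p = 0.00388), 2.65 ± 0.55 for TUBB3 (adjusted p = 0.00978) and 2.44 ± 0.68 for TUBB2B (adjusted p = 0.033), each with the larger rise in CAL62. These were 3 of 10 members, against 7.21% of all genes with a higher and 7.17% with a lower response in CAL62. In 8505c TUBB2A had 1113 and 1103 normalized counts with DMSO and 1314 and 1196 with the high dose, and TUBB3 2864 and 3256 against 2153 and 2428. TUBB3 thus stood below its DMSO level in both 8505c libraries and above it in both CAL62 libraries. The interaction of the sum of TUBB2A and TUBB2B was 2.82 ± 0.48 (adjusted p = 0.00321). That of TUBB2B was lost when any of 6 libraries was left out, with values from 1.72 to 2.63 and adjusted p up to 0.125. The 6 were both 8505c DMSO libraries, both 8505c high-dose libraries, CAL62 DMSO replicate 2 and CAL62 high-dose replicate 2. With the block TUBB4B (1.14, adjusted p = 0.0443) and TUBB6 (0.81, adjusted p = 0.00759) also differed.

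U0126 raised TUBA1A in both lines. In 8505c TUBA1A had 955 and 1085 normalized counts with DMSO and 4625 and 6036 with U0126, a log2 fold change of 2.37 ± 0.59 (adjusted p = 0.022). In CAL62 it had 48.2 and 193 with DMSO and 585 and 555 with U0126, a log2 fold change of 2.55 ± 0.59 (adjusted p = 0.00757). The groups did not overlap in either line, and the 95% interval in CAL62 ran from 1.26 to 3.84. The difference between the lines was 0.17 ± 0.83 (adjusted p = 0.941), too wide an error to tell whether they responded alike. In 8505c the call was lost without any 1 of the 4 libraries compared (2.18 to 2.57, adjusted p 0.0739 to 0.137), and in CAL62 without DMSO replicate 1 (1.56, adjusted p = 0.0852). In the fit of 8505c alone the adjusted p was 8.0e-05, and in that of CAL62 alone TUBA1A lost its call (adjusted p = 0.0554). The sum of the 3 TUBA1 genes, of which TUBA1A was the smallest part, did not pass with U0126 in 8505c (-0.13 ± 0.30, adjusted p = 0.832).

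In CAL62 cells U0126 lowered 6 of 10 members and raised 1, against 15.1% of all genes that fell and 14.1% that rose. The median log2 fold change of the members was -0.74 and that of all genes 0.05. The comparison shares its DMSO libraries with that of DEL-22379. TUBA1B had 56422 and 30292 normalized counts with DMSO and 15264 and 9802 with U0126 (-1.76 ± 0.32, adjusted p = 0.0018). TUBA1C, the second alpha gene, fell from 20992 and 12221 to 6565 and 5355 (-1.43 ± 0.26, adjusted p = 0.00164). TUBB4B fell from 24516 and 13738 to 7722 and 6213 (-1.41 ± 0.29, adjusted p = 0.00338). In each of the 3 the U0126 libraries lay below both DMSO libraries. Over the members they lay above both for 1 and below for 6, against 34.9% and 29.6% of all genes.

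TUBB6 (-0.95 ± 0.25, adjusted p = 0.0135), TUBB (-0.87 ± 0.21, adjusted p = 0.00938) and TUBA4A (-0.61 ± 0.19, adjusted p = 0.0329) fell less. Without CAL62 DMSO replicate 1, TUBB6 (-0.62, adjusted p = 0.163), TUBB (-0.58, adjusted p = 0.122) and TUBA4A (-0.71, adjusted p = 0.0719) lost their calls. Without U0126 replicate 2, TUBB6 (-0.80, adjusted p = 0.107) and TUBB (-0.72, adjusted p = 0.0876) lost them, and TUBA4A lost it without U0126 replicate 1 (-0.34, adjusted p = 0.279) or DMSO replicate 2 (-0.50, adjusted p = 0.129). When only the 8 CAL62 libraries were fitted, TUBA1B (adjusted p = 0.0314), TUBA1C (adjusted p = 0.0308) and TUBB4B (adjusted p = 0.0439) kept their calls and TUBB6 (adjusted p = 0.0839), TUBB (adjusted p = 0.0701) and TUBA4A (adjusted p = 0.12) lost them, and with only the 4 libraries compared all 7 calls were lost (adjusted p 0.0643 to 0.149). TUBB2A, TUBB2B and TUBB3 did not pass, at 0.30, -0.05 and -0.12. The sum of the 3 TUBA1 genes fell by 1.62 (log2, adjusted p = 0.00188) although TUBA1A, its smallest part, rose.

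In 8505c cells U0126 called only TUBA1A among the members in the fit of all libraries, 1 rise and 0 falls against 6.80% and 5.87% of all genes. TUBB3 had 2864 and 3256 normalized counts with DMSO and 6957 and 7063 with U0126 (1.20 ± 0.39, adjusted p = 0.0677). TUBB2A had 1113 and 1103 against 1887 and 1905 (0.77 ± 0.36, adjusted p = 0.182). Neither pair of groups overlapped. U0126 libraries lay above both DMSO libraries for 5 members and below for 4, against 33.4% and 30.0% of all genes. With the block TUBB3 (adjusted p = 3.5e-04), TUBB2A (adjusted p = 0.0411) and TUBA4A (0.46, adjusted p = 0.0398) rose and TUBB6 (-0.43, adjusted p = 0.031) fell, 4 rises with TUBA1A and 1 fall against 12.2% and 11.5% of all genes. The fit of 8505c alone called 5 rises, with TUBB2B (0.82, adjusted p = 0.0244) added, and 1 fall. TUBB stayed at 121552 and 114016 normalized counts with U0126 (0.01 ± 0.21).

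For U0126 the response differed between lines for TUBA4A, which had 808 and 856 normalized counts with DMSO and 1024 and 1271 with U0126 in 8505c, and 1005 and 1167 against 590 and 858 in CAL62. The interaction was -1.06 ± 0.27 (log2, adjusted p = 0.0407). It was 0 members with a higher and 1 with a lower response in CAL62, against 1.84% and 3.85% of all genes, and leaving out any 1 of 11 libraries took the adjusted p to between 0.057 and 0.175. With the block TUBA1B (-1.59, adjusted p = 0.00179), TUBB3 (-1.32, adjusted p = 0.00233), TUBA1C (-1.18, adjusted p = 0.00902) and TUBB (-0.88, adjusted p = 0.0349) also responded lower in CAL62, which made 5 members against 8.26% of all genes.

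The 2 compounds at 10 µM differed directly in CAL62. With U0126 1 member was higher and 6 were lower than with DEL-22379, against 21.0% and 22.1% of all genes. TUBB2B (-3.27 ± 0.48, adjusted p = 1.8e-04), TUBB2A (-2.75 ± 0.36, adjusted p = 7.1e-05), TUBB3 (-2.36 ± 0.39, adjusted p = 4.9e-04), TUBB4B (-2.18 ± 0.29, adjusted p = 7.6e-05) and TUBA1C (-1.64 ± 0.26, adjusted p = 2.9e-04) were lower with U0126 and kept the call without any 1 library. TUBA1B (-1.03 ± 0.32, adjusted p = 0.0214) was lower and TUBA1A (1.82 ± 0.59, adjusted p = 0.0264) higher. TUBA1B lost its call without U0126 replicate 2 (-0.71, adjusted p = 0.181) or either DEL-22379 library (adjusted p = 0.0807 and 0.0715), and TUBA1A without any 1 of these 4 libraries (adjusted p 0.0528 to 0.133). In the fit of CAL62 alone both lost their calls (adjusted p = 0.0924 for TUBA1B and 0.0965 for TUBA1A). TUBB had 19559 and 22693 normalized counts with DEL-22379 and 22429 and 18333 with U0126, a difference of -0.06 ± 0.21. In 8505c TUBB3 was higher with U0126 than with DEL-22379 (1.62 ± 0.39, adjusted p = 0.0248), the 1 member higher and 0 lower against 5.39% and 4.55% of all genes. That call was lost without any 1 of the 4 libraries compared (adjusted p 0.0569 to 0.156). With the block TUBB6 (0.84, adjusted p = 0.0012), TUBA1A (adjusted p = 0.0284) and TUBB (0.55, adjusted p = 0.0406) were also higher with U0126, and in CAL62 TUBA4A (-0.40, adjusted p = 0.0362) and TUBB6 (-0.49, adjusted p = 0.00658) were also lower.

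The 100 bases before the RefSeq start of TUBB2A and TUBB2B are shown because both rose in CAL62. That start of TUBB2B lies inside the longer GENCODE 29 extent given above, which ends at 3231730 on chromosome 6, so the 2 annotations differ there. Capitals mark GGGCGG, the GC box, or TATAAA on either strand, read 5′ to 3′ on the gene's strand from the RefSeq promoter table of GRCh38.p14.
TUBB2A (chr6:3157545-3157644, minus strand): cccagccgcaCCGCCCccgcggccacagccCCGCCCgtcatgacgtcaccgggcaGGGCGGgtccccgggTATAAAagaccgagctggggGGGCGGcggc
TUBB2B (chr6:3227654-3227753, minus strand): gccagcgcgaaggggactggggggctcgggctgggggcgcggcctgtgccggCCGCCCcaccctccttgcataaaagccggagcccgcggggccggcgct
All 10 members matched this table, with 15 windows of 300 bases in all. GGGCGG on either strand occurred in 9 of the 15 windows, belonging to 8 genes, and in 45.0% of all 35116 windows. CCAAT occurred in 9 windows of 7 genes, against 34.6% of all windows. TATAAA occurred in the TUBB2A window alone, against 11.5% of all windows. TTTGAA occurred in 4 windows of 2 genes, TUBA1C and TUBB4B, against 15.2%. Windows of the same gene can overlap, as they do for TUBA1C. TGANTCA occurred in 1 window, of TUBB3, against 7.71%, and CCGGAA in none against 17.2%.

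The genes closest in pattern to the 4 members with the widest range were sought among 12056 protein-coding genes, over 16 libraries and with each line centred on its own mean. For TUBB2A they were ZFP36 (r = 0.983), MIDN (0.980) and ATG2A (0.974). For TUBB2B they were CIC (0.962), PLEKHM2 (0.952) and DNM2 (0.945), and for TUBB3 GAPDH (0.965), GPS2 (0.936) and MIDN (0.929). For TUBA1A they were RTL8C (0.974), DDX60L (0.971) and BNIP3L (0.970). ZFP36, an RNA-binding protein that promotes decay of AU-rich mRNAs, had 238 and 329 normalized counts in CAL62 with DMSO and 2832 and 8302 with 10 µM DEL-22379. Among the members themselves, TUBA1C and TUBB4B were closest (r = 0.957), followed by TUBB2A and TUBB3 (0.926), and TUBA1A and TUBA1C the most opposed (-0.769). These correlations are descriptions. The libraries share treatments, depth and replicate differences, and the genes were picked as the highest of many.

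Of the machinery that reads the nascent tubulin tetrapeptide, a list of 8 genes was tested, namely TTC5, SCAPER and the CCR4-NOT genes CNOT1, CNOT6, CNOT6L, CNOT7, CNOT8 and CNOT11. With 10 µM DEL-22379 in CAL62, 1 of the 8 rose and 3 fell, against 17.1% and 16.8% of all genes. TTC5, which recognizes the nascent chain, fell from 673 and 597 normalized counts to 290 and 250 (-1.23 ± 0.20, adjusted p = 6.5e-04). CNOT11, the subunit that SCAPER binds, fell (-0.41, adjusted p = 0.00562), as did the deadenylase CNOT6L (-0.57, adjusted p = 0.00885), while the deadenylase CNOT8 rose (0.39, adjusted p = 0.0161). SCAPER did not pass (0.24, adjusted p = 0.253). In 8505c TTC5 had 792 and 1027 normalized counts with DMSO and 436 and 700 with the high dose (-0.71 ± 0.20, adjusted p = 0.0362), 1 fall of 8 genes against 6.57% of all genes. With U0126 0 of 8 were called by limma, edgeR or DESeq2 in either line, and 1 in 8505c and 0 in CAL62 had an unadjusted p under 0.05. The median of the list was 0.00 (log2) with the high dose in CAL62 and -0.07 in 8505c, and that of all genes 0.00 and 0.01.

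Of the 14 subunits of the CCT chaperonin and prefoldin, which fold tubulin, 8 fell with 10 µM DEL-22379 in 8505c, against 6.57% of all genes, and 5 in CAL62, against 16.8%. With U0126 2 fell in 8505c, against 5.87%, and 8 in CAL62, against 15.1%, and none rose in these 4 comparisons. Their medians were -0.38, -0.15, -0.28 and -0.35 (log2). PFDN2 of prefoldin (-0.88, adjusted p = 5.6e-04) and TCP1, a CCT subunit (-0.79, adjusted p = 0.00293), fell with U0126 in CAL62. Of 7 folding cofactors, 1 rose and 2 fell with the high dose in CAL62, against 17.1% and 16.8% of all genes, and 1 fell with U0126 there, against 15.1%. ARL2, a small GTPase that acts with them, fell in CAL62 with the high dose from 2322 and 2461 to 1186 and 1314 normalized counts (-0.94, adjusted p = 1.9e-04). TBCD, a beta tubulin cofactor, fell there too (-0.36, adjusted p = 0.027), TBCEL rose (0.32, adjusted p = 0.0469), and TBCD fell with U0126 in CAL62 (-0.57, adjusted p = 0.00264). In 8505c limma and edgeR called 0 of 7 with either compound, DESeq2 called 1 with the high dose and 0 with U0126, and 3 and 1 had an unadjusted p under 0.05.

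Among 12 further tubulin genes, 7 could be tested, and 1 fell in each of these 4 comparisons, against 5.87% to 16.8% of all genes. TUBE1, epsilon tubulin of centrioles, fell with the high dose in 8505c (-0.91, adjusted p = 0.00892) and CAL62 (-0.73, adjusted p = 0.0103), and with U0126 in 8505c (-1.33, adjusted p = 9.7e-04). TUBG1, the gamma tubulin that nucleates microtubules, fell with U0126 in CAL62 (-1.48, adjusted p = 4.1e-05). No other gene of the list was called in these 4 comparisons.

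Of 20 tested microtubule-associated and plus-end genes, 8 rose and none fell with the high dose in CAL62, against 17.1% and 16.8% of all genes, among them the plus-end linkers CLIP2 (1.32, adjusted p = 0.00115) and CLIP1 (0.69, adjusted p = 0.00147) and the end-binding gene MAPRE1 (0.83, adjusted p = 0.0027). In 8505c 4 rose and 1 fell, against 7.07% and 6.57% of all genes, with the rise of MAP7 (2.16, adjusted p = 2.5e-04) from 36.5 and 41.0 to 188 and 166 normalized counts. Of 11 tested stathmins and destabilizers, 1 rose and 7 fell with the high dose in CAL62, against the same shares of all genes as above, with STMN3 (-1.54, adjusted p = 1.2e-05) and the severing enzyme FIGN (-2.25, adjusted p = 1.3e-05) foremost. With U0126 in CAL62 STMN3 fell (-1.70, adjusted p = 4.1e-06) and FIGN rose (1.68, adjusted p = 8.2e-05), 1 rise and 6 falls in all, against 14.1% and 15.1% of all genes. Of 16 modifying enzymes, U0126 raised 7 and lowered 3 in CAL62, against those same shares, with a rise of the deacetylase HDAC6 (0.92, adjusted p = 6.9e-04) and falls of TTLL12 (-1.07, adjusted p = 2.8e-04) and the tyrosine ligase TTL (-0.86, adjusted p = 0.00171).

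Cell cycle and ERK output genes moved in the same libraries, and their part in the tubulin changes was not tested. With U0126 in CAL62, 20 of 20 G2/M genes and 15 of 15 G1/S genes fell, against 15.1% of all genes, with medians of -2.00 and -2.27 (log2). With the high dose of DEL-22379 in CAL62, 6 of 20 and 9 of 15 fell, against 16.8%, with medians of -0.64 and -0.74. In 8505c limma and edgeR called 0 of 20 G2/M genes with either compound, DESeq2 1 with DEL-22379 and 0 with U0126, and 2 had an unadjusted p under 0.05 with each. Their medians were -0.11 and -0.22, and 2 of 15 G1/S genes fell with each, against 6.57% and 5.87% of all genes. The summed G2/M level was 184429 and 102335 normalized counts in the 2 CAL62 DMSO libraries. TUBA1B, TUBA1C, TUBB, TUBB2B, TUBB4B and TUBB6 were also higher in replicate 1 there, whereas TUBA1A, TUBA4A, TUBB2A and TUBB3 were higher in replicate 2. With 10 µM DEL-22379 in CAL62 the G2/M sum was 109672 and 69076. Of the members only TUBA1B, TUBA1C and TUBB6 were then higher in replicate 1. Of 10 ERK output genes, U0126 lowered 9 in 8505c, against 5.87% of all genes, and 8 in CAL62, against 15.1%. The high dose of DEL-22379 lowered 5 in 8505c, against 6.57%, and raised 5 in CAL62, against 17.1%.

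Markers of other cell types also moved in places. The 4 fibroblast markers together had 5553 and 13763 normalized counts in CAL62 with DMSO, 3724 and 1963 with 10 µM DEL-22379 and 65825 and 41025 with U0126. In 8505c they lay between 22.7 and 284. COL1A1 (2.54, adjusted p = 0.00698), COL1A2 (3.14, adjusted p = 0.0124) and LUM (4.28, adjusted p = 8.3e-04) rose with U0126 in CAL62, while DCN did not exceed 5.16 normalized counts there. COL1A1 (-1.65, adjusted p = 0.0456) and COL1A2 (-3.07, adjusted p = 0.0119) fell with 10 µM DEL-22379 in CAL62, and LUM (3.86, adjusted p = 0.00395) and DCN (2.73, adjusted p = 0.0406) rose with U0126 in 8505c. Of the epithelial markers, KRT8 rose with U0126 in 8505c (1.39, adjusted p = 4.9e-04) and fell with 10 µM DEL-22379 in CAL62 (-0.89, adjusted p = 0.00241). KRT18 rose with U0126 in 8505c (0.86, adjusted p = 0.00226) and fell with U0126 in CAL62 (-1.21, adjusted p = 8.5e-05), where KRT8 did not pass (0.20, adjusted p = 0.441). Of the endothelial markers, with 10 µM DEL-22379 in CAL62 PECAM1 rose (3.74, adjusted p = 0.00256), to 12.8 and 59.9 normalized counts, and CDH5 fell (-2.52, adjusted p = 0.00868), to 0 in both libraries. The thyroid markers SLC5A5 (4.29, adjusted p = 0.00399) and TG (3.18, adjusted p = 0.0399) rose there too, to at most 87.7 and 88.8 normalized counts. Of 4 leukocyte markers MS4A1 was at 0 in every library, PTPRC at 11.6 normalized counts or less and CD68 between 564 and 3710. Their part in the tubulin changes was not tested.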

How the data were processed

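The deposited signal values are read counts per gene that the authors scaled by 1 size factor per library and gave with 2 decimals, from stranded mRNA libraries with paired reads of 51 bases. The labels name the build GRCh38. No source used here names the aligner or the counter. Whole reads were recovered from the step between low values (100% of values under 200 were whole within 0.02 reads), except that for replicate 1 of 8505c at the low dose the step lay too close to 1 to be told from rounding. All table columns matched samples.

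A gene was tested if 2 or more libraries reached 10 normalized counts (19127 of 60715, all 10 members among them). Values entered as log2(value + 1), the scale of the fold changes, which understates those of low genes. limma 3.58.1 (R 4.3.3) with trended, robust moderation fitted 1 mean per group over all 16 libraries, with 8 residual degrees of freedom. Adjusted p-values are Benjamini-Hochberg values across the whole table, separately for each of 14 comparisons, called under 0.05. The paper's methods call the replicates biological, without saying what separated them, and p-values measure only the spread between these samples. edgeR 4.0.16 and DESeq2 1.42.0 on the recovered reads, other pseudocounts, filters and scalings, the replicate block and leaving out each library were the alternatives. The fit was tested on simulated data.

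Same-numbered libraries were compared by correlating, across genes, how far each lay from its group mean. This gave 0.22 to 0.50 in CAL62 and 0.088 to 0.122 in 8505c, so the pairing is read from the values and not the labels. The blocked fit adds the replicate number within each line.

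Named genes were all members, at most 4 called genes of each list per comparison with DMSO by smallest p, any gene of a list of 8 or fewer, the cell type markers, and the 3 genes most correlated with each of the 4 members of widest range. AC092143.1 was named after its values were seen. The members and lists were chosen with earlier results of these data known. Of the gene IDs, 64.9% matched GENCODE 29 with their version, the source of coordinates, lengths and transcripts. TBCE had 2 rows, of which the higher was used.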

Additional observations from a re-analysis of the deposited data

Results flagged for a closer look

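By the interaction term, 8505c and CAL62 responded differently to the high dose of DEL-22379 for TUBB2A (2.87 on the log2 scale), TUBB3 (2.65) and TUBB2B (2.44), each higher in CAL62. The response to U0126 differed for TUBA4A (-1.06), lower in CAL62. TUBA4A stood above DMSO in both 8505c libraries and below it in both CAL62 libraries. The groups of 2 libraries were too small to look for single libraries out of line.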

How the results depend on the processing

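The main limit is 2 replicates per group and the wide spread of CAL62. Main counts of called members were 1 in each comparison within 8505c above the low dose, 4 for 10 µM DEL-22379 against DMSO or against 1 µM in CAL62, 7 for U0126 in CAL62, and 3 and 1 for the differences in response to DEL-22379 and U0126. For 10 µM DEL-22379 in 8505c the count was 8 with only the libraries of the line, 3 with only the 4 libraries compared, 3 with the replicate block, and 8 with the block within the line, a fit added after seeing the data. For U0126 in 8505c these counts were 6, 5, 5 and 6, and DESeq2 called 2. For 10 against 1 µM in 8505c they were 7, 4, 3 and 8. For U0126 against DEL-22379 in 8505c they were 6, 5, 4 and 6, and a pseudocount of 5, a mean of at least 50, quantile normalization and DESeq2 each called 2. In CAL62, 10 µM DEL-22379 gave 1 with only the 4 libraries and 7 with the block, U0126 gave 3 with only the line and 0 with only the 4 libraries, and 10 against 1 µM gave 2 with only the 4 libraries. The difference in response to DEL-22379 gave 5 with the block. That to U0126 gave 0 without a filter on low values, 3 with equal totals, 5 with the block and 5 by DESeq2. The causes were not tested, beyond the fewer samples of the smaller fits.

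Leaving out 1 library at a time gave 0 to 0 called members for 1 µM DEL-22379 in each line and for the difference between them. In 8505c the range was 0 to 1 for 10 µM DEL-22379, 0 to 3 for U0126, 0 to 1 for 10 against 1 µM and 0 to 3 for U0126 against DEL-22379. In CAL62 it was 4 to 7, 3 to 7, 4 to 6 and 5 to 7. It was 5 to 9 between the lines under DMSO, 2 to 4 for the difference in response to DEL-22379 and 0 to 4 for that to U0126. Among changes called in at least 1 fit, the 1 value that changed sign was that of TUBA1A with 10 µM DEL-22379 in CAL62. It was -0.26 without CAL62 DMSO replicate 1 and 1.72 without replicate 2. Changes called in no fit were not checked for sign. Equal totals put the median of all genes at 0.14 for 10 µM DEL-22379 in 8505c (0.01 in the main fit), at 0.12 between the lines under DMSO (0) and at -0.22 for the difference in response to DEL-22379 (-0.03). Without dividing by length 54 of 80 class shares moved by more than 1 SD, for example TUBB in CAL62 with DMSO from 47.5% to 58.3%.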
